A study of Rattus norvegicus with 6 samples.

Results

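ATF4 and 9 genes of the amino acid stress response were followed in primary rat brain microvascular endothelial cells (rBMECs) exposed to homocysteine (Hcy). The genes are Atf4, Ddit3, Trib3, Asns, Chac1, Sesn2, Ddit4, Cebpb, Cebpg and Atf5. They were taken by name, as the rows of the deposited count table that carry these symbols, and they make up 10 of its 33566 genes. All 10 reached the minimum of 10 counts summed over the libraries, as did 14603 genes in all. RNA was sequenced from 6 libraries, 3 from rBMECs given Hcy for 24 h and 3 from rBMECs given vehicle (Veh), which was ddH2O. The labels of the Hcy libraries give a dose of 100 µM, and the same protocol text also mentions a solution of 50 µM. rBMECs are the endothelium of brain microvessels, the cell layer that makes up the blood-brain barrier. The cells of both groups were isolated with a commercial kit from SD rats 18 to 22 days old and were passaged before use. The labels give the cerebral cortex as their source and the study's methods the forebrain. No genetic change is named for either group. Sequencing was of poly(A)-selected RNA. The series calls the 3 libraries of a group biological replicates, but the sources used here do not say whether they came from separate isolations or animals, so p-values measure only the spread between these libraries.

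ATF4 is a transcription factor of the bZIP family, which binds DNA as a dimer. Its mRNA is present in resting cells but is translated efficiently when the initiation factor eIF2 is phosphorylated, by GCN2 on uncharged tRNA, by PERK on misfolded protein in the endoplasmic reticulum, or by related kinases. ATF4 then activates genes for amino acid synthesis, uptake and tRNA charging, together with its own dimer partners and feedback inhibitors. The level of Atf4 mRNA is therefore not a measure of ATF4 protein, and no protein was measured in these data. Among the 9 other genes, Cebpb, Cebpg and Ddit3 encode bZIP partners of ATF4, Atf5 encodes a related bZIP factor, and Trib3 encodes a pseudokinase that holds ATF4 back. Asns encodes asparagine synthetase, Chac1 an enzyme that degrades glutathione, and Sesn2 and Ddit4 encode inhibitors of the growth kinase complex mTORC1.

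ATF4 dimers with C/EBP proteins are known to bind a composite C/EBP-ATF response element. It was searched for as TGATGNAA, or TTNCATCA on the opposite strand, in RefSeq promoter windows of the rat assembly GRCr8 that run from 250 bases before to 50 bases after each gene's start. The element was present in 1332 of 33469 windows, 3.98%. Some genes have several windows, and 1141 of 27457 genes, 4.16%, held it in at least 1. All 10 genes had a window, and 2 of the 10 windows held these letters, those of Chac1 and Trib3. They are shown because Chac1 and Trib3 also had the highest fold changes of the 10 genes. The windows of 2 genes for tRNA charging, Aars1 and Nars1, are shown as well, since both genes stand among the results on the wider pathway. Capitals mark the element, and each sequence is written 5′ to 3′ on the strand of its gene.
Chac1: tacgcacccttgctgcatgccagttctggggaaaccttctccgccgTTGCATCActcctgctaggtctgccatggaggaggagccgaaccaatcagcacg
Trib3: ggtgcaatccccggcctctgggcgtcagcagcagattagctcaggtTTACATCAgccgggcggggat
Aars1: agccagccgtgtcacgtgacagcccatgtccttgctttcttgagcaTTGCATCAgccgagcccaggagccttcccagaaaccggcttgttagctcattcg
Nars1: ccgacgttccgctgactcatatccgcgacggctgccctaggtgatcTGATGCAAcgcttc
The Chac1 stretch lies at chr3:126795918-126796017 on the plus strand, and its element begins 167 bases before the start. The Trib3 stretch lies at chr3:161275534-161275600 on the minus strand, and its element begins 21 bases before the start. The Aars1 stretch lies at chr19:55908324-55908423 on the plus strand with an element 112 bases before the start, and the Nars1 stretch at chr18:60275783-60275842 on the minus strand with its element 14 bases before the start. The Aars1 window holds 2 matches, and the other, which lies past the start, is not printed. A match in these letters is a description of the window, and a window without them says nothing of binding elsewhere in the gene.

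Reads counted on genes ranged from 14024997 to 16634356 in the Hcy libraries and from 14786920 to 16764584 in the Veh libraries. Levels are given as CPM, counts scaled to library size with edgeR's TMM factors, and 3 counts correspond to 0.178 to 0.215 CPM, a floor that covers counting error only. The quasi-likelihood test of edgeR was used for Hcy against Veh, with p-values adjusted over all 14603 genes. Veh replicate 3 stood apart from the other libraries. Its counts differed from those of Veh replicates 1 and 2 by a chi-square per degree of freedom of 25.2 and 22.3, against 5.13 to 6.78 for the other pairs within a group. For the 10 genes and for the count of each list, calls by adjusted p that change without it are given both ways. Overlap between the groups was judged on all libraries. Endothelial markers were high, with 9 of the 10 matched markers counted and a summed level of 7873 to 8285 CPM in Hcy and 6341 to 7747 CPM in Veh, although the defining marker Cldn5 was at 0 in every library. Of these 9, Kdr, Tie1, Vwf and Flt1 were higher in every Hcy library than in any Veh library. Tek, Slc2a1 and Mfsd2a were lower in every Hcy library, and Cdh5 and Ocln overlapped. Of all genes tested, 10.8% were higher and 9.27% lower in Hcy without overlap. The 4 smooth muscle markers summed to 673 to 702 CPM in Hcy and 1120 to 1348 CPM in Veh. Pericyte markers summed to 4 to 6.18 CPM in Hcy and 2.85 to 4.01 CPM in Veh, and fibroblast markers to 44.9 to 68.7 CPM and 63.5 to 91.2 CPM. Astrocyte, microglia and leukocyte, and neuron markers stayed at or below 2.63 CPM in every library, with Aqp4, Slc1a2, Ptprc, Cx3cr1, Rbfox3 and Snap25 at 0, and oligodendrocyte markers lay between 10.6 and 12.2 CPM. In bulk RNA, fewer cells of a type and less RNA per cell cannot be told apart. The part of the smooth muscle and fibroblast markers in the gene results was not tested.

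Chac1 was the gene of the 10 that changed most with Hcy. Its mean level was 1.99 times that in Veh (95% interval 1.67 to 2.37), and it was the only one to pass an adjusted p of 0.05. Trib3 and Asns had no overlap between the groups either, with Hcy higher, at 1.57 and 1.29 times the Veh level, but both missed the threshold. Atf4 itself, its bZIP partners Ddit3, Cebpb and Cebpg, the related factor Atf5 and the mTORC1 inhibitors Sesn2 and Ddit4 overlapped between the groups. Over the 10 genes, 6 had a fold change above 1 and 4 below, with a median log2 fold change of 0.03, against -0.02 over all genes tested. Of the 10, 1 passed adjusted p in the higher direction, in which 1.32% of all genes tested passed, and 0 passed in the lower direction, in which 1.01% passed. None passed both adjusted p and a 2-fold change, as 0.486% of all genes did with edgeR, and DESeq2 likewise gave 0. At an unadjusted p of at most 0.05 there were 3 of 10, against 13.4% of all genes. Non-overlapping groups with Hcy higher were found for 3 of 10 genes, against 10.8% of all genes, and with Hcy lower for 0 of 10, against 9.27%. Atf4 and Sesn2 overlapped only through Veh replicate 3, with the other Veh libraries below every Hcy library. The share of all genes without overlap was not taken without that library.

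**Figure D1:**
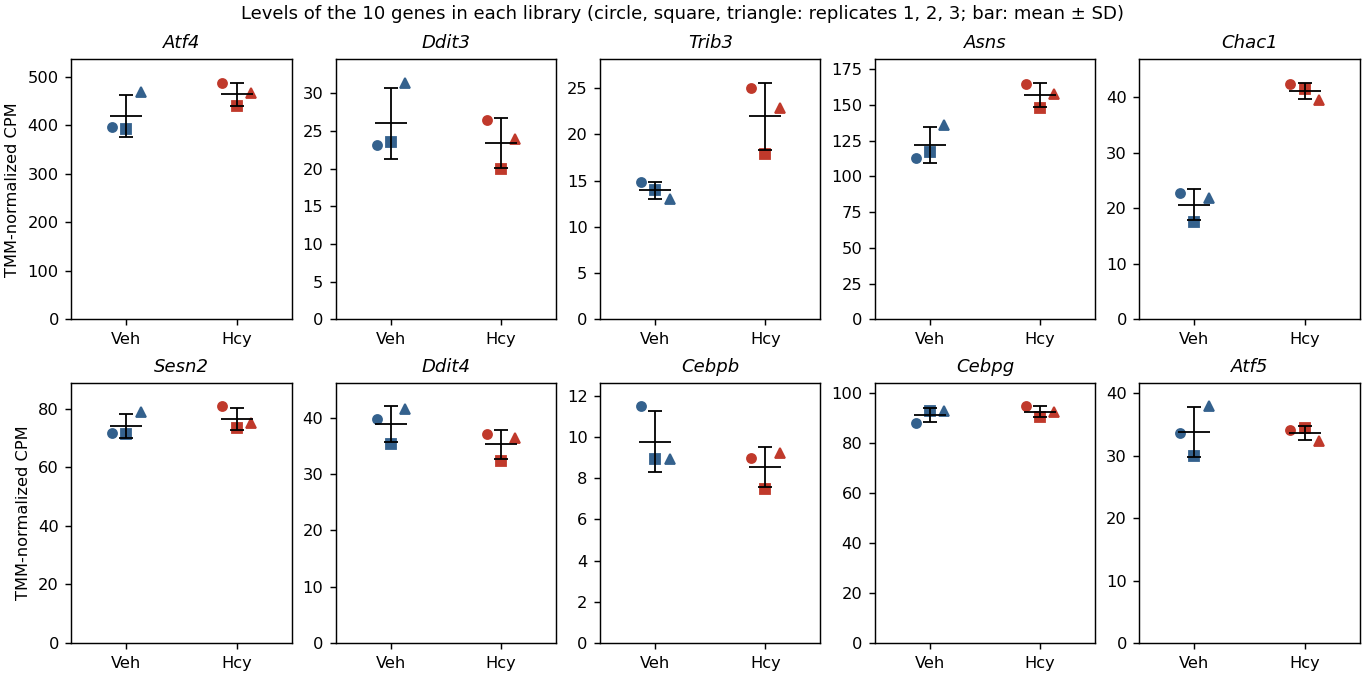
TMM-normalized CPM (y axis, from 0) of each of the 10 genes in the 3 Veh and 3 Hcy libraries (x axis), with symbols for replicates 1, 2 and 3 and bars for the mean ± SD. Chac1, Trib3 and Asns are separated between the groups, with Chac1 at 39.6 to 42.4 CPM in Hcy and 17.5 to 22.8 CPM in Veh, and the other 7 genes overlap.

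Chac1 encodes the glutathione-specific gamma-glutamylcyclotransferase, which breaks down glutathione, the main thiol antioxidant of the cell. The gene (ENSRNOG00000014387) lies on the plus strand of chromosome 3, from 111160205 to 111163425 in the table, whose build is not named and whose positions differ from the GRCr8 positions of the promoter windows. Its levels were 42.4, 41.6 and 39.6 CPM in Hcy replicates 1, 2 and 3 and 22.8, 17.5 and 21.8 CPM in Veh replicates 1, 2 and 3. The lowest Hcy library lay well above the highest Veh library, and the Hcy libraries differed little among themselves. The means were 41.2 ± 1.45 CPM (SD, n = 3) in Hcy and 20.7 ± 2.84 CPM in Veh. The log2 fold change was 0.99 with a standard error of 0.11, just under the 2-fold threshold, and the adjusted p from edgeR was 0.00353, which placed Chac1 at rank 41 of the genes tested. It passed adjusted p under all 13 alternative settings, with a log2 fold change between 0.88 and 1.07. Without Veh replicate 3 its log2 fold change was 1.03 with an adjusted p of 0.000681, which then also passed the 2-fold threshold, as it did without Hcy replicate 3 or Veh replicate 1. The paralogue Chac2, named after its values were seen and encoding a glutathione-degrading enzyme of the same family, had 7.45 ± 0.178 CPM in Hcy and 7.36 ± 0.819 CPM in Veh, and its log2 fold change was 0.02 (adjusted p = 0.974 in edgeR).

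Trib3 encodes a pseudokinase that is induced by ATF4 and restrains it in a feedback loop. The gene (ENSRNOG00000007319) lies on the minus strand of chromosome 3, from 147813473 to 147819571 in the table. Its levels were 25, 17.9 and 22.9 CPM in Hcy replicates 1, 2 and 3 and 14.8, 14 and 13 CPM in Veh replicates 1, 2 and 3. All 3 Hcy libraries lay above all 3 Veh libraries, with Hcy replicate 2 close to the Veh range and the other 2 well above it. The means were 21.9 ± 3.66 CPM in Hcy and 13.9 ± 0.887 CPM in Veh, a log2 fold change of 0.65 with a standard error of 0.14 and a 95% interval of 0.33 to 0.97. The adjusted p from edgeR was 0.0507, which just missed the threshold. DESeq2 gave Trib3 an adjusted p of 0.00339. Trib3 also passed without Veh replicate 3, at a log2 fold change of 0.60 (adjusted p = 0.0377), and without Hcy replicate 2, at 0.78 (adjusted p = 0.0481). The paralogues Trib1 and Trib2, named after their values were seen, had log2 fold changes of 0.15 and -0.00, with adjusted p of 0.711 and 0.991 from edgeR.

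Asns makes asparagine from aspartate and glutamine and is a standard readout of amino acid shortage. The gene (ENSRNOG00000007546) lies on the minus strand of chromosome 4, from 33743364 to 33761163 in the table. Its levels were 165, 148 and 158 CPM in Hcy replicates 1, 2 and 3 and 113, 117 and 136 CPM in Veh replicates 1, 2 and 3. The groups did not overlap, and Veh replicate 3 was the Veh library nearest to the Hcy range. The means were 157 ± 8.73 CPM in Hcy and 122 ± 12.5 CPM in Veh, with a log2 fold change of 0.37, a standard error of 0.09 and a 95% interval of 0.16 to 0.57. The adjusted p was 0.0863 with edgeR and 0.0103 with DESeq2. Without Veh replicate 3 the log2 fold change was 0.45 with an adjusted p of 0.00337 from edgeR.

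With DESeq2, 3 of the 10 genes passed adjusted p in the higher direction, namely Chac1, Trib3 and Asns, where 2.35% of all genes tested did. Without Veh replicate 3, 4 of 10 passed in edgeR, namely these 3 and Atf4, where 3.48% of the genes tested did. The median log2 fold change of the 10 genes was then 0.09, against -0.00 over all genes. Leaving out that library raised the count of all genes past adjusted p from 341 to 957, while leaving out any other library lowered it to between 80 and 151.

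**Figure D2:**
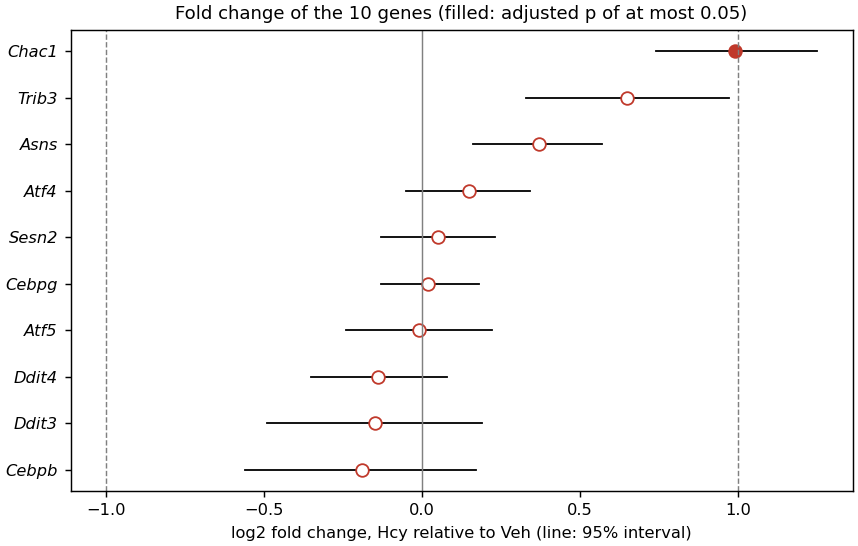
The log2 fold change of Hcy relative to Veh (x axis) for each of the 10 genes (y axis), with lines for 95% intervals, dashed lines at a 2-fold change and a filled point where the adjusted p from edgeR was at most 0.05. Only Chac1, at 0.99, is filled, the intervals of Trib3 and Asns lie above 0, and those of the other 7 genes include 0.

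Atf4 is the regulator after which the response is named. The gene (ENSRNOG00000017801) lies on the plus strand of chromosome 7, from 121480723 to 121482772 in the table. Its levels were 487, 440 and 466 CPM in Hcy replicates 1, 2 and 3 and 396, 393 and 469 CPM in Veh replicates 1, 2 and 3. Veh replicate 3 lay inside the Hcy range, and the other 2 Veh libraries lay below it. The means were 464 ± 23.9 CPM in Hcy and 419 ± 43.3 CPM in Veh, with a log2 change of 0.15 (95% interval -0.05 to 0.34, adjusted p = 0.526 from edgeR). As a fold change, this interval ran from 0.968 to 1.27 times the Veh level, in the fit with Veh replicate 3 included. Without Veh replicate 3 the log2 fold change was 0.24 and the adjusted p 0.0344, the one setting of 13 in which Atf4 passed.

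The bZIP partners did not pass the test in either direction. Ddit3, also called CHOP and known for its part in cell death under lasting stress, is listed on chromosome 7 from 70580198 to 70585084. It had 26.4, 19.9 and 24 CPM in Hcy replicates 1, 2 and 3 and 23.1, 23.5 and 31.4 CPM in Veh replicates 1, 2 and 3. The highest of the 6 libraries was Veh replicate 3, and the groups overlapped. Its log2 fold change was -0.15 (95% interval -0.49 to 0.19, adjusted p = 0.75 from edgeR). It was 0.01 without Veh replicate 3, so its sign rests on that library. Ddit3 shares 72 bases with Mars1, named for this overlap, on the opposite strand, and whether counting used the strand is not given in the sources used here. Mars1 had 168 ± 2.81 CPM in Hcy and 139 ± 3.35 CPM in Veh, so reads of the shared stretch could not be assigned with certainty.

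Cebpb, a C/EBP factor of the acute phase and of stress, was the gene with the fewest counts of the 10, between 111 and 194 per library, and is listed on chromosome 3 from 164424515 to 164425910. It had 8.56 ± 0.967 CPM in Hcy and 9.79 ± 1.5 CPM in Veh, with a log2 change of -0.19 (95% interval -0.56 to 0.17, adjusted p = 0.682 from edgeR). Veh replicate 1 was its highest library at 11.5 CPM, and the other 5 lay between 7.46 and 9.25 CPM. Cebpg, a short C/EBP protein that pairs with ATF4, is listed on chromosome 1 from 91287917 to 91296656. It was the steadiest of the 10 genes, at 94.7, 90.3 and 92.6 CPM in Hcy replicates 1, 2 and 3 and 88, 92.7 and 92.8 CPM in Veh replicates 1, 2 and 3. Its log2 fold change was 0.02 with an interval of -0.13 to 0.18, so a change beyond 1.13 times the Veh level lies outside the interval, and it was -0.0024 without Veh replicate 1. Atf5, whose mRNA is under translational control like that of Atf4, is listed on chromosome 1 from 100808241 to 100810522. It had 33.6 ± 1.11 CPM in Hcy and 33.8 ± 4.03 CPM in Veh, with the lowest and the highest of its 6 values, 29.9 and 37.9 CPM, in Veh replicates 2 and 3. Its log2 fold change was -0.01 (95% interval -0.24 to 0.22, adjusted p = 0.986 from edgeR). It turned to 0.08 without Veh replicate 3 and to 0.02 without Hcy replicate 3.

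The mTORC1 inhibitors also overlapped between the groups, Sesn2 through Veh replicate 3 alone. Sesn2, a leucine sensor that restrains mTORC1, is listed on chromosome 5 from 150684133 to 150704117. It had 80.9, 73.6 and 75.1 CPM in Hcy replicates 1, 2 and 3 and 71.7, 71.6 and 78.8 CPM in Veh replicates 1, 2 and 3. Its log2 fold change was 0.05 with an interval of -0.13 to 0.23 (adjusted p = 0.864 from edgeR). Ddit4, also called REDD1 and induced by hypoxia and other stresses as well, is listed on chromosome 20 from 29509289 to 29511382. It had 35.3 ± 2.63 CPM in Hcy and 38.9 ± 3.12 CPM in Veh, a log2 fold change of -0.14 with an interval of -0.35 to 0.08 (adjusted p = 0.603 from edgeR). In both genes the range within each group was wider than the difference between the means.

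Levels of different genes were compared as CPM per kb of gene length. In Veh, Atf4 stood first at 216 ± 22.3 CPM per kb, followed by Asns at 54.8 ± 5.6, Atf5 at 32.8 ± 3.91, Ddit3 at 28.1 ± 5.03 and Cebpg at 26.7 ± 0.793 CPM per kb. Ddit4 at 22.6 ± 1.82 and Sesn2 at 19.8 ± 1.11 CPM per kb came next, and Chac1 at 13.2 ± 1.81, Trib3 at 7.2 ± 0.458 and Cebpb at 7.01 ± 1.07 CPM per kb were the lowest. Neighbours in this order whose Veh libraries overlapped were Atf5 and Ddit3, Ddit3 and Cebpg, Ddit4 and Sesn2, and Trib3 and Cebpb. In Hcy, Atf4 at 239 ± 12.3 and Asns at 70.6 ± 3.92 CPM per kb kept the first and the second place. Chac1 stood in place 5 of 10, at 26.3 ± 0.926 CPM per kb, after place 8 in Veh. Its Hcy libraries overlapped those of Cebpg and Ddit3, its neighbours in the order. Trib3 at 11.3 ± 1.89 CPM per kb no longer overlapped Cebpb at 6.13 ± 0.693 CPM per kb.

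**Figure D3:**
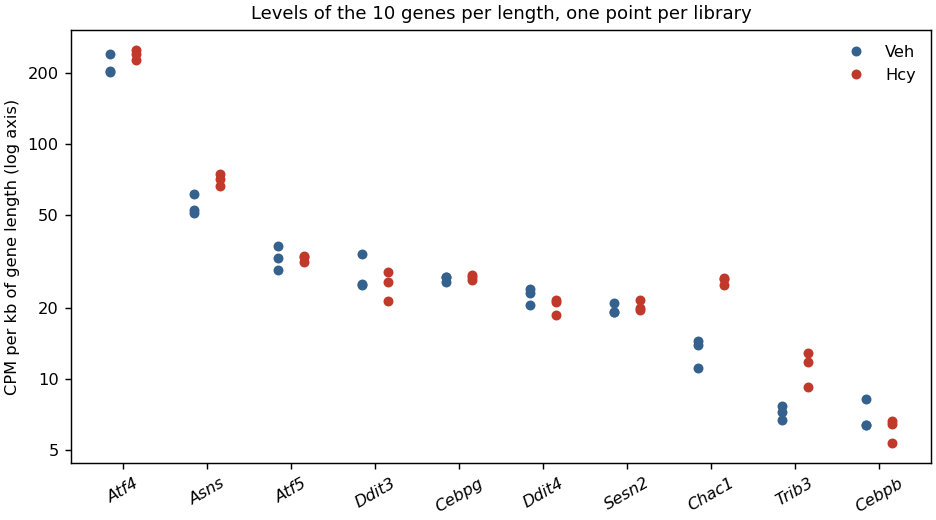
CPM per kb of gene length (y axis, log scale) of the 10 genes (x axis, in the order of their Veh means), with a point for each Veh and each Hcy library. Atf4 is the highest gene in both groups, at 216 CPM per kb in Veh, and Chac1 moves from 13.2 CPM per kb in Veh to the range of Cebpg and Ddit3 in Hcy.

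Setting each gene against Atf4 in the same library removes the scaling between libraries. The ratio also carries any difference in Atf4 itself, whose log2 fold change was 0.15. Per 100 Atf4 reads, Chac1 had 8.69, 9.47 and 8.49 reads in Hcy replicates 1, 2 and 3 and 5.76, 4.45 and 4.65 reads in Veh replicates 1, 2 and 3. Asns had 33.9, 33.6 and 33.9 reads in Hcy and 28.5, 29.8 and 29 reads in Veh. Trib3 had 5.13, 4.06 and 4.9 reads in Hcy and 3.73, 3.57 and 2.77 reads in Veh. In these 3 genes every Hcy library was above every Veh library also on this scale, and the Asns ratio was nearly the same in all libraries of a group, at 33.8 ± 0.166 and 29.1 ± 0.63 reads. That makes 3 of the 9 other genes higher relative to Atf4 without overlap, against 4.36% of all genes tested. Ddit3, at 5.02 ± 0.455 reads in Hcy and 6.17 ± 0.453 in Veh, Ddit4, at 7.6 ± 0.243 and 9.31 ± 0.66, and Sesn2, at 16.5 ± 0.336 and 17.7 ± 0.79, were lower relative to Atf4 without overlap. These are also 3 of 9, against 21.3% of all genes tested. In CPM all 3 overlapped between the groups, and Sesn2 had a log2 fold change of 0.05. The nearest Hcy and Veh libraries of Sesn2 on the ratio scale were at 16.7 and 16.8 reads. Cebpb, Cebpg and Atf5 overlapped, Cebpb and Cebpg through Veh replicate 3 alone. That library lay inside their Hcy ranges, at 1.9 and 19.8 reads, and Veh replicates 1 and 2 lay above them.

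**Figure D4:**
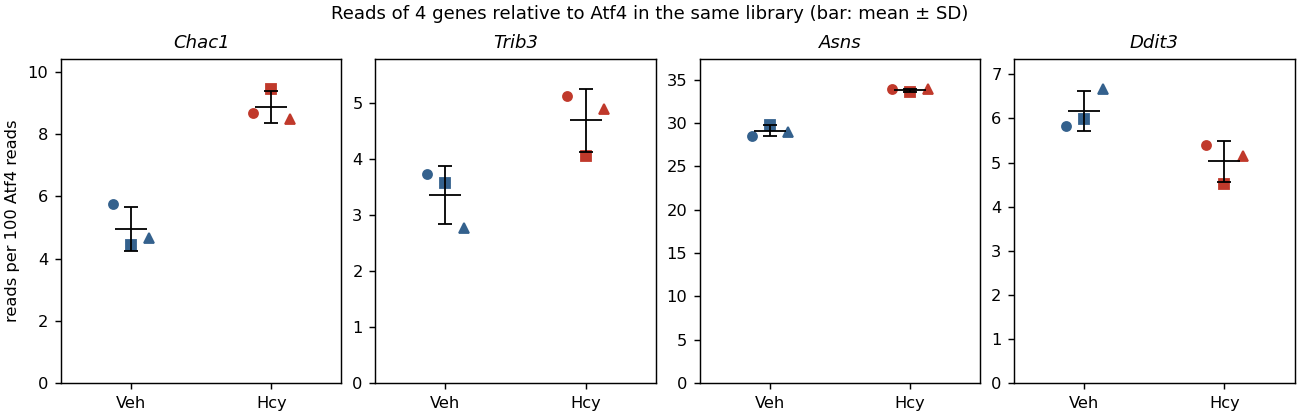
Reads per 100 Atf4 reads of the same library (y axis, from 0) for Chac1, Trib3, Asns and Ddit3 in the 3 Veh and 3 Hcy libraries (x axis), with symbols for replicates and bars for the mean ± SD. Chac1 (8.88 in Hcy, 4.95 in Veh), Trib3 and Asns are higher in every Hcy library, and Ddit3 (5.02 in Hcy, 6.17 in Veh) is lower.

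The genes whose profile over the 6 libraries was most like that of Atf4 were looked for among 8249 genes with a mean of at least 10 CPM. Likeness was measured as the root-mean-square distance between log2 CPM values centred on each gene's mean, over all 6 libraries with Veh replicate 3 included. The closest were Eif4a3, an RNA helicase of the exon junction complex, at 0.0157, P3h3, a collagen prolyl hydroxylase, at 0.0203, Asl, argininosuccinate lyase of arginine synthesis, at 0.0213, U2af1, a splicing factor subunit, at 0.0218, and Mrfap1 at 0.0237. The Atf4 profile itself spans only 0.31 on the log2 scale. None of the 9 other genes was among these 5. Sesn2 was the nearest of them, at 0.0662 and rank 303, Asns stood at rank 1517, and Trib3 and Chac1 were among the most distant genes, at ranks 7294 and 8038. Cebpb lay under 10 CPM and was not ranked.

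The wider pathway was described with 8 further lists. Genes past adjusted p as higher in Hcy were 5 of 13 for tRNA charging and export, 3 of 9 for amino acid enzymes, 3 of 9 for amino acid transporters and 1 of 12 for other ATF4 targets. None of the 16 kinases and eIF2 regulators upstream of ATF4 passed. In all, 13 genes of the lists passed adjusted p in edgeR, 12 higher and 1 lower in Hcy. The lists were chosen with earlier results of these data known, and their counts and medians are descriptions beside those over all genes. Of all genes tested, 1.32% passed as higher and 1.01% as lower, and the median log2 fold change was -0.02.

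The list upstream of ATF4 holds the eIF2 kinases, the subunits of eIF2 and of its exchange factor eIF2B, and the phosphatase subunits that reset the pathway. Of 16 genes tested, 7 were above and 9 below the Veh level, with a median log2 fold change of -0.02. None passed adjusted p in edgeR or DESeq2. At an unadjusted p of at most 0.05 there was 1 gene of 16, against 13.4% of all genes. That gene was Impact, an inhibitor of GCN2 activation, at 38.1 ± 4.99 CPM in Hcy and 46.5 ± 1.32 CPM in Veh, with a log2 change of -0.29 (adjusted p = 0.237 from edgeR). Without Veh replicate 3, 1 of the 16 genes passed as higher, against 3.48% of all genes. It was Eif2s2, named after its values were seen. Eif2ak4, which encodes GCN2, had 53.1 ± 2.27 CPM in Hcy and 57.1 ± 4.82 CPM in Veh, and Eif2ak3, which encodes PERK, had 35.1 ± 1.85 and 36.3 ± 5.71 CPM. Both were named after their values were seen. These are mRNA levels and do not measure the phosphorylation through which the kinases act.

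Among amino acid transporters, 6 of 9 genes were above the Veh level and 3 passed adjusted p, all higher in Hcy, with a median log2 fold change of 0.16 over the list. Slc1a5, a glutamine and neutral amino acid exchanger, had 64.1, 66.2 and 63 CPM in Hcy replicates 1, 2 and 3 and 43.5, 42.8 and 44.4 CPM in Veh replicates 1, 2 and 3. The groups lay far apart. The log2 fold change was 0.56 with a standard error of 0.07 (adjusted p = 0.00483 from edgeR), and Slc1a5 passed under all 13 alternatives. Slc7a5, the light chain of the large neutral amino acid transporter LAT1 of the blood-brain barrier, had 161 ± 10.7 CPM in Hcy and 122 ± 3.37 CPM in Veh, a log2 fold change of 0.40 (adjusted p = 0.0297). Slc6a9, the glycine transporter GlyT1, was the one gene of these lists past both thresholds. It had 2.88 ± 0.118 CPM in Hcy and 1.24 ± 0.255 CPM in Veh, a log2 fold change of 1.22 with a standard error of 0.25 (adjusted p = 0.046). Slc7a5 and Slc6a9 missed the threshold when any library but Veh replicate 3 was left out, with adjusted p of up to 0.148 and 0.18. Slc38a2, the neutral amino acid transporter SNAT2, named after its values were seen, was lower in every Hcy library, at 460 ± 13.2 CPM in Hcy and 563 ± 39.4 CPM in Veh. Its log2 fold change was -0.29, with an adjusted p of 0.0887 from edgeR, while it passed in DESeq2 and without Veh replicate 3. Those settings each gave 4 transporters past adjusted p as higher, with Slc1a4 added, which was named after its values were seen. Of all genes tested, 2.35% passed as higher in DESeq2 and 3.48% without Veh replicate 3.

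All 9 matched genes for amino acid and one-carbon enzymes were above the Veh level, with a median log2 fold change of 0.48, and 3 passed adjusted p. The log2 fold changes ran from 0.02 to 0.90, and their median was 0.39 without Veh replicate 3. At an unadjusted p of at most 0.05 there were 4 of 9, against 13.4% of all genes. In 4 the groups did not overlap with Hcy higher, against 10.8%. The highest, Aldh18a1, named after its values were seen, spread from 31 to 171 counts in Hcy and 9 to 123 in Veh. Psat1, phosphoserine aminotransferase of serine synthesis, had 90.8, 84.2 and 79.2 CPM in Hcy replicates 1, 2 and 3 and 50.2, 48.8 and 51.6 CPM in Veh replicates 1, 2 and 3. Its lowest Hcy library was far above its highest Veh library. The log2 fold change was 0.75 with a standard error of 0.08 (adjusted p = 0.0022 from edgeR), and it passed under all 13 alternatives. Mthfd2, a mitochondrial folate enzyme, had 80.9 ± 4.83 CPM in Hcy and 55.2 ± 3.3 CPM in Veh (log2 fold change 0.55, adjusted p = 0.0119). Shmt2, the mitochondrial serine hydroxymethyltransferase, had 125 ± 5.37 and 96.8 ± 4.25 CPM (log2 fold change 0.36, adjusted p = 0.0392). Mthfd2 lost its call without Hcy replicate 1 or 3 or Veh replicate 1 or 2, with an adjusted p of up to 0.0683, and Shmt2 when any library but Veh replicate 3 was left out, with one of up to 0.189. The count of the list was 4 in DESeq2 and also without Veh replicate 3, where 2.35% and 3.48% of all genes passed as higher. Psph, the last enzyme of serine synthesis, was added in both and was named after its values were seen. Phgdh, the enzyme before Psat1 in serine synthesis and named after its values were seen, had 13.9 ± 0.937 CPM in Hcy and 12.2 ± 1.41 CPM in Veh with overlapping groups, with a log2 change of 0.19 (adjusted p = 0.603 from edgeR).

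In the list for tRNA charging and export, 5 of 13 genes rose with Hcy. All 13, that is 12 cytosolic aminoacyl-tRNA synthetases and the tRNA exporter Xpot, were above the Veh level, between 0.10 and 0.41 on the log2 scale with a median of 0.29. The 5 past adjusted p in edgeR stand against 1.32% of all genes passing as higher. At an unadjusted p of at most 0.05 there were 12, against 13.4% of all genes, and in 11 the groups did not overlap with Hcy higher, against 10.8%. Xpot, the lowest of the list, had 119 ± 9.88 CPM in Hcy and 111 ± 17.4 CPM in Veh and was named after its values were seen. Nars1, the asparaginyl-tRNA synthetase, had 377 ± 8 CPM in Hcy and 284 ± 3.26 CPM in Veh (log2 fold change 0.41, adjusted p = 0.0121). Lars1, for leucine, had 252 ± 6.48 and 194 ± 3.71 CPM (0.37, adjusted p = 0.0196), and Aars1, for alanine, had 376 ± 11.8 and 297 ± 8.22 CPM (0.34, adjusted p = 0.0288). Eprs1, for glutamate and proline, had 449 ± 5.21 and 355 ± 16.2 CPM (0.34, adjusted p = 0.0303). In each of these 4 genes every Hcy library was above every Veh library. The fifth gene past the threshold, Cars1, for cysteine and named after its values were seen, had 167 ± 1.46 and 133 ± 5.82 CPM (0.33, adjusted p = 0.0418). The calls depended on the set of libraries. Of the 13 genes, 10 passed without Veh replicate 3, where 3.48% of all genes passed as higher, 1 without Veh replicate 1, and 0 when any other library was left out, with the direction kept in these 5 genes under every alternative. The C/EBP-ATF element was present for 7 of the 11 genes of this list that have a promoter window, against 4.16% of all genes with a window, and among the genes past the threshold the windows of Lars1 and Eprs1 held none. Of the genes with a window in the other lists, it was present for 4 of 9 other ATF4 targets, 2 of 7 transporters, 2 of 16 upstream genes and 1 of 8 enzymes. It was present for 0 of 8 genes of the other unfolded protein response branches, 0 of 7 paralogues and 0 of 12 bZIP partners. The windows of the called genes Psat1, Mthfd2, Shmt2, Vldlr, Slc7a5, Slc6a9 and Fosl1 were also without these letters.

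Of 12 other known ATF4 targets, 8 were above the Veh level, and the median log2 fold change was 0.21. At an unadjusted p of at most 0.05 there were 6 in either direction, against 13.4% of all genes. In 5 the groups did not overlap with Hcy higher, against 10.8%, and in 0 with Hcy lower, against 9.27%. These 5 include Fgf21 and Nupr1, which were close to the floor. For Nupr1 the nearest Hcy and Veh libraries both had 3 counts, at 0.202 and 0.191 CPM. Past adjusted p there was 1. This was Vldlr, the very low density lipoprotein receptor, at 121, 133 and 125 CPM in Hcy replicates 1, 2 and 3 and 73.3, 75 and 67.3 CPM in Veh replicates 1, 2 and 3. Its log2 fold change was 0.81 with a standard error of 0.08 (adjusted p = 0.00134 from edgeR), and it passed under all 13 alternatives. The count of the list was 3 without Veh replicate 3, where 3.48% of all genes passed as higher. Eif4ebp1 and Herpud1 were added as higher, both named after their values were seen. Fgf21 and Nupr1, both named after their values were seen, are strong ATF4 targets in other cells but were close to the floor here. In Hcy replicates 1, 2 and 3 the reads on Fgf21 numbered 6, 13 and 5, against 3, 1 and 3 in the Veh replicates. Those on Nupr1 numbered 7, 3 and 10 against 3, 3 and 1. Neither passed, with adjusted p of 0.296 and 0.392 from edgeR. Atf3, a stress-induced bZIP factor, had 63.7 ± 2.19 CPM in Hcy and 62 ± 1.38 CPM in Veh, and Gdf15, a secreted stress hormone, had 256 ± 26.7 and 304 ± 27.1 CPM with an adjusted p of 0.311. Jdp2 and Stc2 were higher in every Hcy library, at log2 fold changes of 0.47 and 0.29 (adjusted p = 0.0702 and 0.119 from edgeR). Atf3, Gdf15, Jdp2 and Stc2 also were named after their values were seen.

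The branches of the unfolded protein response outside ATF4, through ATF6 and XBP1, had 8 of 10 genes above the Veh level, a median log2 fold change of 0.07 and 0 past adjusted p in edgeR. At an unadjusted p of at most 0.05 there were 2 of 10, Hspa5 as higher and Ern1 as lower, against 13.4% of all genes. The groups did not overlap with Hcy higher for 4 of 10, Hspa5, Hsp90b1, Xbp1 and Pdia4, against 10.8% of all genes. With Hcy lower there was 1 of 10, Ern1, against 9.27%. DESeq2 called 1, Hspa5, where it called 2.35% of all genes as higher. Hspa5, the chaperone BiP, had 1008 ± 38.7 CPM in Hcy and 849 ± 19.9 CPM in Veh, with a log2 change of 0.25 (adjusted p = 0.091 from edgeR). Without Veh replicate 3, Hspa5 passed as higher, where 3.48% of all genes did, and Ern1 as lower. Of these genes, all but Hspa5 were named after their values were seen. Of 6 tested paralogues of the 10 genes, 0 passed in edgeR or DESeq2 and 1 reached 0.05 without adjustment, against 13.4% of all genes. That was Sesn3, with 9.43 ± 0.766 CPM in Hcy and 12.1 ± 1.78 CPM in Veh (log2 fold change -0.36, adjusted p = 0.327). Among 14 bZIP partners and competitors, the median log2 fold change was 0.03, or -0.01 without Veh replicate 3. With edgeR 1 gene passed, as lower, against 1.01% of all genes. Fosl1, an AP-1 subunit, had 74.6 ± 2.11 CPM in Hcy and 96.9 ± 5.48 CPM in Veh, and its log2 fold change was -0.38 (adjusted p = 0.0364). It missed the threshold when any library but Veh replicate 3 was left out, with an adjusted p of up to 0.183. Without Veh replicate 3 it was joined by Jun, named after its values were seen. Of 14352 genes tested without Veh replicate 3, 957 passed in either direction, 500 of them as higher.

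**Figure D5:**
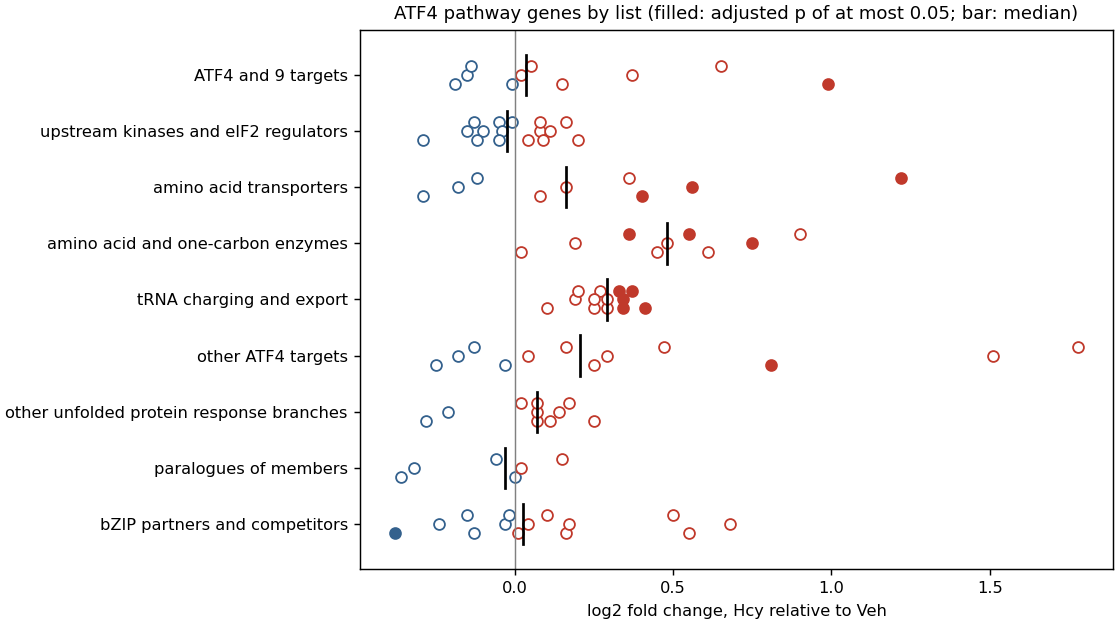
The log2 fold change of Hcy relative to Veh (x axis) for every tested gene of the 9 lists (y axis), with a point per gene, filled where the adjusted p from edgeR was at most 0.05, and a black bar at the list median. The tRNA list lies wholly between 0.10 and 0.41, the upstream list is centred at -0.02, and the 2 open points farthest to the right are Fgf21 and Nupr1, which rest on 1 to 13 counts per library.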

How the data were processed

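RNA-seq of 6 rBMEC libraries, 3 Hcy and 3 Veh, was analysed at the gene level. Raw counts per gene, with gene positions and lengths, were deposited by the authors. Per the submitters' processing notes, fastp, HISAT2 2.2.1, StringTie 2.2.3, Cufflinks, featureCounts 2.0.6 and DESeq2 1.42.0 were used with mRatBN7.2. Printed gene positions are those of the count table, which names no build and reaches 282724300 on chromosome 1, so they cannot be read as mRatBN7.2. A further deposited table with the authors' own fold changes and p-values was not used here.

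Values were computed in R 4.3.3 with edgeR 4.0.16 and DESeq2 1.42.0, keeping genes that reached 10 summed counts. Counts were scaled with TMM factors (0.9772 to 1.015) and tested by edgeR's quasi-likelihood method, with treatment alone in the model and Benjamini-Hochberg adjustment over 14603 genes. The prior count was 0.125, and 95% intervals come from the same fit. Thresholds were an adjusted p of at most 0.05 and, for calls on both, a log2 fold change of 1 or more in either direction. Each SD was taken over 3 libraries.

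The 10 genes and the lists were chosen with earlier results of these data known. Named genes were all 10, up to 4 genes past adjusted p in each direction from each further list, by smallest p, or else the gene with the smallest p, and the 5 profiles closest to Atf4. Others are marked where they appear. Cth, Bbc3, Tnfrsf10b and Ddit4l, and the markers Pecam1, Abcb1a and Col1a2, matched no gene name in the count table and have no expression values here, and Cebpa and Cebpe were under the count minimum.

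Alternatives were DESeq2, its size factors, library totals alone, 2 other count filters, a replicate block, a prior count of 2, unadjusted p and leaving out each library in turn.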

Additional observations from a re-analysis of the deposited data

How the results depend on the processing

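Of the 10 genes, 1 passed adjusted p with edgeR. The count was 3 with DESeq2, 3 without a count filter, 2 with edgeR's filterByExpr and 3 at an unadjusted p of at most 0.05, and between 1 and 4 when single libraries were left out. The 4 came without Veh replicate 3, and without Hcy replicate 2 there were 2. None passed both thresholds, and 0 to 1 did when libraries were left out: Chac1 without Hcy replicate 3, Veh replicate 1 or Veh replicate 3. Library totals in place of TMM factors moved all 20 group means of the 10 genes by less than 1 SD. Chac1 passed adjusted p in all 13 alternatives (adjusted p 4.16e-11 to 0.0307), Trib3 in 5 (0.00339 to 0.223), Asns in 3 (0.00337 to 0.3) and Atf4 in 1 (0.0344 to 0.806). Of the further lists, 13 genes passed, and 3 to 27 when single libraries were left out: 27 without Veh replicate 3, 4 without Hcy replicate 2 or Veh replicate 1, and 3 without Hcy replicate 1, Hcy replicate 3 or Veh replicate 2. Psat1, Slc1a5 and Vldlr passed in all 13. The direction of 4 genes near no change turned when a library was left out: Ddit3 ranged from -0.24 to 0.01 on the log2 scale (positive without Veh replicate 3), Cebpg from -0.0024 to 0.04 (negative without Veh replicate 1), Atf5 from -0.09 to 0.08 (positive without Veh replicate 3 or Hcy replicate 3) and Chac2 from -0.07 to 0.07 (negative without Veh replicate 1). The causes were not tested.

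The replicate numbers were not taken to pair the libraries, as the labels name nothing shared and not every same-number correlation was above 0.1. Deviations from the group means correlated between same-numbered libraries at -0.0197, 0.208 and 0.0544 over 11788 genes. Hcy replicates 2 and 3 correlated best with the Veh replicate of the same number, and Hcy replicate 1 with Veh replicate 3. In the fit blocked on replicate number, 298 genes passed adjusted p in place of 341, 1 of the 10 genes (Chac1, at a log2 fold change of 1.00) passed both thresholds, and 7 genes of the further lists passed in place of 13. Among the genes named, Aars1 and Eprs1 (adjusted p = 0.0571 each), Cars1 (0.0805), Slc6a9 (0.0845), Shmt2 (0.0758) and Fosl1 (0.0733) no longer passed in edgeR with the block.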
